A study of Mus musculus with 8 samples.

Results

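The genes described here encode the proteins of the striated muscle sarcomere, the repeating contractile unit of skeletal and heart muscle. The list holds 48 genes, chosen by symbol, and every probe whose RefSeq accession belongs to one of them was taken, which gave 68 of the 55681 probes on the array and at least 1 probe for each gene. Of the 48 genes, 45 had a probe brighter than its surround (well above background, in the scanner software's term) on 4 arrays or more, and were tested among 14730 genes. Myh3, Tnnc1 and Tnnt2 had none.

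RNA came from inguinal white fat, a subcutaneous depot at the hind limb, of 4 control and 4 Senp2-aKO mice. Both groups carried Senp2flox/flox, alleles of the SUMO protease gene Senp2 that Cre recombinase can inactivate. Senp2-aKO mice also carried Adipoq Cre, in which the adiponectin gene drives Cre in adipocytes, so that vessel, immune, nerve and muscle cells of the pad keep the gene. All mice were 8 weeks old at the start of a diet with 58 kcal% fat, which they ate for 12 weeks at 22 to 24 °C, and the series asks whether loss of Senp2 turns white fat brown. The labels do not say whether a sample was 1 mouse or a pool, and p-values measure the spread between these samples.

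In a sarcomere, thick filaments of myosin pull on thin filaments of actin. Troponin and tropomyosin on the thin filament make this pull depend on calcium, titin and nebulin set the filaments' place and length, and the Z-disc anchors the thin filaments. Most of these proteins come in forms made by different genes, so that fast fibres, slow fibres, developing muscle and heart each have their own set. Slow fibres share much of their set with heart, whereas fast fibres do not. Mature adipocytes are not known for sarcomeres. Muscle of the body wall lies close to the inguinal pad, and whether these samples held any was not tested.

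All 8 arrays lay on 1 slide, with the controls in row 1 and the Senp2-aKO arrays in row 2, and the effect of the row cannot be told apart from that of genotype. Between 29403 and 31448 probes per array were well above background and no spot was saturated. The 75th percentile of the signal, to which each array was scaled, was 408 to 446 in controls and 324 to 382 in Senp2-aKO arrays. A log2 level of 0 is that percentile, and levels of different genes are not compared, since probes differ in brightness. Senp2 had log2 levels of 2.37 to 2.52 in controls and 2.12 to 2.22 in Senp2-aKO arrays, below every control, a log2 difference of -0.27 (SE 0.08) at a limma adjusted p = 0.0507. The adipocyte genes Adipoq and Plin1 were bright on all 8 arrays, at 8.42 to 8.97 and 6.77 to 7.29. Of the 6 adipocyte genes listed, these among them, 0 rose, 1 fell (log2 fold change -1.85) and 5 did not pass in limma. One knockout array, aKO 2, stood apart in lymphocyte genes, with a mean log2 level of 2.18 over 4 B cell genes against -3.65 to -0.59 on the other 7 arrays, and of 2.83 against -1.50 to 0.30 over 4 T cell genes.

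Sarcomere genes rose in Senp2-aKO fat. Of the 45 tested, 31 rose, 0 fell and 14 did not pass (limma, adjusted p under 0.05 over all genes). Among all genes tested, 7.29% rose and 7.12% fell. At an unadjusted p under 0.05, 34 members were higher and 1 was lower. Normexp background correction and quantile scaling each called 1 member lower. All 4 Senp2-aKO arrays lay above all 4 controls in 31 members, the same 31 that rose, and in 11.2% of all genes. They lay below all controls in 1 member, Myl4, and in 15.1% of all genes. A rise of at least 4-fold was called in 28 members, against 1.15% of all genes, and 17 of the 48 genes of the whole array called at least 16-fold higher were members. Of these 17, Mylpf, Actn2, Myot, Smpx, Ttn and Myom2 were not well above background on every control. With the normexp background the log2 fold changes of Mylpf, Actn2, Ttn, Smpx and Myot were 1.83, 2.32, 2.65, 3.05 and 3.14, all under 16-fold. Myom2 and Mylk2 also fell under 16-fold in some setting, with lowest log2 fold changes of 3.73 and 3.09 over 13 alternatives. The median log2 fold change was 3.14 over the members and -0.02 over all genes tested. Nrap and Xirp2 entered the test only through the Senp2-aKO arrays, where they are high, and 29 of the other 43 rose. With these genes at the lowest fold their controls allow, the median was 2.93 and 27 members rose at least 4-fold. Of the 31 members well above background on all 8 arrays, 22 rose. The count was 20 without control 1 and 25 to 33 without any other array.

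**Figure D1:**
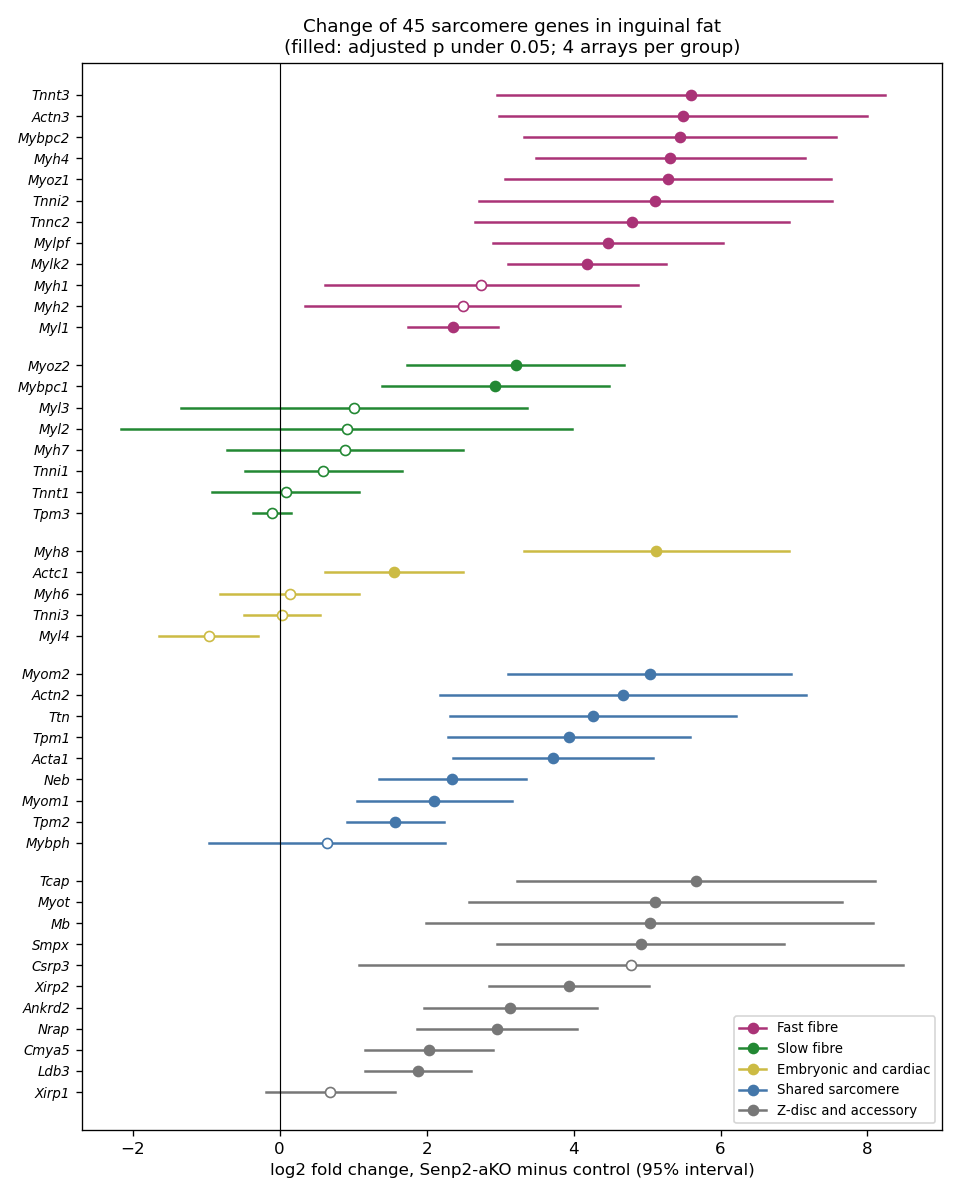
Log2 fold change of each tested sarcomere gene (x axis, Senp2-aKO minus control, with its 95% interval from limma, 4 arrays per group), grouped by form; filled points passed at an adjusted p under 0.05. Nrap and Xirp2 are drawn at their fitted value although their controls were not well above background. Fast fibre genes lie between 2.36 and 5.60 and 6 of the 8 slow fibre genes have intervals that include 0.

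Counts and medians differed between forms. Fast fibre genes rose in 10 of 12 cases with a median log2 fold change of 4.96. Slow fibre genes rose in 2 of 8 tested, with a median of 0.90, and embryonic and cardiac genes in 2 of 5 tested, with a median of 0.14. Parts of the sarcomere that fibre types share rose in 8 of 9 (median 3.72), and Z-disc and accessory genes in 9 of 11 (median 3.94, or 3.14 with Nrap and Xirp2 at that bound). With the normexp background these last medians were 2.32 and 2.07, and the shared median was 2.35 when the probes of a gene were averaged.

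Myosin heavy chains are the motors of the thick filament, and 5 of those listed lie side by side on chromosome 11, in the order Myh3, Myh2, Myh1, Myh4 and Myh8. The region before the start site is shown for the 4 of them that were tested, for the slow chain Myh7, and for the skeletal and cardiac actin genes, because they are neighbours or close relatives, of which Myh4, Myh8, Acta1 and Actc1 rose and Myh1, Myh2 and Myh7 did not pass. Each is the 120 bases up to the start site in RefSeq on GRCm38.p6, 5′ to 3′ on the gene's strand, with matches to 5 motifs in capitals: the E-box CAGCTG, the TATA box TATAAA, the MCAT element CATTCC, and the MEF2 and CArG motifs by name, on both strands.
Myh2 (chr11:67170907-67171026, + strand): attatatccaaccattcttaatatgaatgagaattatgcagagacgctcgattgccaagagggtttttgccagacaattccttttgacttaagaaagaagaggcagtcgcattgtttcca
Myh1 (chr11:67199982-67200101, + strand): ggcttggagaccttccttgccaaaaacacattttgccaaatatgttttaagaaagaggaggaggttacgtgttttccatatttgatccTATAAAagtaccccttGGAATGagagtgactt
Myh4 (chr11:67237692-67237811, + strand): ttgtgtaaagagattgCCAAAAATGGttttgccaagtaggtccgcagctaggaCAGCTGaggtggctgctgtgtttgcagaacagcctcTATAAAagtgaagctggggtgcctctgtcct
Myh8 (chr11:67277004-67277123, + strand): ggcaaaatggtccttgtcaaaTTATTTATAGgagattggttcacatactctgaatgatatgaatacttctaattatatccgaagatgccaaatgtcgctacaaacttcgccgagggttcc
Myh7 (chr14:54994550-54994669, - strand): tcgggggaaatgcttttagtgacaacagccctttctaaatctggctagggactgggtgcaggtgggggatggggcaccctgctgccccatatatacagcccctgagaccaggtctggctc
Acta1 (chr8:123894776-123894895, - strand): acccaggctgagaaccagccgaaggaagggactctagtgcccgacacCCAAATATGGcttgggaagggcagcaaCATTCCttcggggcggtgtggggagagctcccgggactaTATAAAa
Actc1 (chr2:114052876-114052995, - strand): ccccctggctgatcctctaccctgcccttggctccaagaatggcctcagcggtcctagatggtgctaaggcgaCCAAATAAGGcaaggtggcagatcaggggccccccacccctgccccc

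Among these 7 windows, Myh4 held the E-box at bases -67 to -62, the TATA box at -31 to -26 and a CArG match at -104 to -95 before its start. Myh8 held a MEF2 match at -99 to -90 that overlaps a TATAAA on the other strand. Myh1 had a TATA box at -32 to -27 and a MCAT element at -16 to -11. The actin genes Acta1 and Actc1 both held a CArG match, at -73 to -64 and -47 to -38. Neither the Myh2 nor the Myh7 window held these letters. RefSeq gave promoters for 38 of the 48 members, 47 windows in all, each 250 bases before and 50 after the start. The E-box stood in 17 of these 47 windows (36.2%), against 16.3% of 32851 promoters in the table, and the CArG motif in 7 (14.9%), against 1.63%. The MEF2 motif stood in 6 (12.8%, against 3.19%), the TATA box in 13 (27.7%, against 13.6%) and the MCAT element in 13 (27.7%, against 14.7%). Some members contribute several overlapping windows. A match describes the letters and does not show a binding site.

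Myh4, the heavy chain of the fastest (IIB) fibres, had log2 levels of 0.08, -0.18, 3.36 and 2.40 in controls 1 to 4. It reached 5.92, 6.85, 7.5 and 6.67 in aKO 1 to 4. The groups did not overlap, and the change was 39.9-fold with an interval of 11.2 to 142 at 95% and an adjusted p = 0.00774 from limma over 4 arrays a group. Myh1, the chain of IIX fibres, stood at -3.17, -2.52, 1.05 and -0.07 in controls and at 0.49, 1.48, 2.43 and 1.87 in Senp2-aKO arrays. Control 3 lay above aKO 1, and the gene did not pass (log2 fold change 2.74, SE 0.93, adjusted p = 0.0842). Myh2, the chain of oxidative IIA fibres, read -3.69, -2.91, 0.49 and -2.73 in controls and -0.32, -0.66, 0.17 and 1.92 in Senp2-aKO arrays. Control 3 here exceeded 3 of the 4 Senp2-aKO arrays, and Myh2 did not pass either (2.49, SE 0.93, adjusted p = 0.110). Without control 3 both passed (log2 fold changes 3.48 and 3.39, adjusted p = 0.0458 and 0.0265). Myh1 also passed with the replicate number as a block (adjusted p = 0.0382).

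Myh8, the perinatal heavy chain, was read by 2 probes. On the probe that stood for the gene it read 0.53, 0.45, 3.86 and 2.88 in controls and 6.28, 7.15, 7.84 and 6.95 in Senp2-aKO arrays, a 34.9-fold rise (95% interval 10.02 to 122, adjusted p = 0.00809). On the other probe control levels were -4.64, -6.76, -3.76 and -5.34, of which 1 was well above background, and Senp2-aKO levels were -2.24, -1.02, -0.34 and -1.17. Both probes passed over all probes kept (log2 fold changes 5.13 and 3.93, adjusted p = 0.00966 and 0.0120). The heavy chain genes are close in sequence, and whether a Myh8 probe also binds another chain's RNA was not tested. Myh3, the embryonic heavy chain, was well above background on 1 control array and on 0 of 4 Senp2-aKO arrays by 1 probe, and on 0 of 8 arrays by the other. Its neighbours Myh2, Myh1 and Myh4 were well above background on all 8 arrays, as was Myh8 on the probe that stood for the gene.

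The light chains and troponins of fast fibres rose together. Myl1, which encodes the fast essential light chains, went from 4.29, 4.51, 4.85 and 4.93 in controls to 6.57, 6.96, 7.74 and 6.74 in Senp2-aKO arrays. Its controls lay closer together than those of any other fast gene, and the rise was 5.13-fold (95% interval 3.37 to 7.82). The second Myl1 probe, for another transcript, gave a log2 fold change of 3.09 (SE 0.34). Mylpf, the fast regulatory light chain, was well above background in only 1 control, with levels of -6.75, -6.94, -5.08 and -4.04 against -2.14, -0.99, -0.34 and -1.45. Its measured rise was 22.2-fold (95% interval 7.49 to 65.6), a log2 fold change of 4.47, which was 1.83 with the normexp background. Mylk2, the kinase that phosphorylates that chain, rose 18.2-fold (95% interval 8.65 to 38.2).

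Tnnc2, the calcium-binding troponin C of fast fibres, had levels of 1.18, 1.17, 5.04 and 4.46 in controls and 7.08, 7.84, 8.56 and 7.55 in Senp2-aKO arrays. Tnni2, the inhibitory subunit, read 0.61, 0.60, 4.97 and 4.36, then 7.09, 7.89, 8.53 and 7.49. Tnnt3, the tropomyosin-binding subunit, read -1.66, -1.67, 3.06 and 2.52, then 5.34, 6.34, 7.07 and 5.90. Controls 3 and 4 exceeded controls 1 and 2 in each of these 3 genes, and every Senp2-aKO array exceeded all controls. Their rises were 27.8-fold, 34.6-fold and 48.5-fold (adjusted p = 0.0162, 0.0189 and 0.0192). Actn3, the fast fibre actinin of the Z-disc, had levels of -4.13, -4.26, 0.44 and -0.60 against 2.56, 3.52, 4.38 and 2.94, a rise of 44.8-fold (95% interval 7.89 to 254). Mybpc2 and Myoz1, the fast forms of myosin-binding protein C and of the Z-disc protein myozenin, rose 43.7-fold and 39.1-fold. Without control 1 the calls of Tnni2, Tnnt3 and Actn3 ended (adjusted p = 0.0519, 0.0524 and 0.0510).

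The slow forms of myosin chains and troponins did not pass where they were tested. Myh7, the heavy chain of slow fibres and of heart, read -3.75, -4.0, -2.86 and -4.14 in controls and -3.10, -3.83, -3.68 and -0.57 in Senp2-aKO arrays. Myl2, the slow and cardiac regulatory light chain, read -5.22, -4.75, -1.19 and -4.69, then -1.83, -4.67, -5.55 and -0.16. It was well above background on 3 controls and 2 Senp2-aKO arrays, so its lower levels are background readings. Myl3, the slow essential light chain, read -3.53, -3.42, -0.67 and -3.5, then -1.01, -3.69, -2.96 and 0.59. In all 3 the highest levels were those of aKO 4, with aKO 1 and control 3 next or close behind, while aKO 2 and aKO 3 lay near the other controls. Of the 12 fast genes, 11 were highest on aKO 3, and Myh2 on aKO 4. None of the 3 passed (log2 fold changes 0.89, 0.91 and 1.01, adjusted p = 0.412, 0.674 and 0.533), and their 95% intervals ran from -0.71 to 2.49, from -2.16 to 3.99 and from -1.35 to 3.37. Without aKO 4 the Myl2 value turned to -0.05.

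Tnni1, the slow inhibitory troponin, showed the same order, with -4.96, -4.59, -3.67 and -5.15 in controls and -4.06, -4.58, -4.58 and -2.77 in Senp2-aKO arrays (log2 fold change 0.60, SE 0.47, adjusted p = 0.414). It was well above background on only 2 controls and 2 Senp2-aKO arrays. Tnnt1, the slow tropomyosin-binding troponin, stood at -0.66, 0.05, -0.02 and -0.98, then at -0.53, -0.67, -1.03 and 0.94 (0.08, SE 0.43, adjusted p = 0.917). Its value turned to -0.0043 without control 1, to -0.11 without control 4 and to -0.34 without aKO 4. Tnnc1, the slow and cardiac troponin C, was not tested, being well above background on 2 controls and 1 Senp2-aKO array, and its highest level was again on aKO 4 (-3.05, against -5.57 to -4.15 on the other arrays). Of the 5 tested genes Myh7, Myl2, Myl3, Tnni1 and Tnnt1, grouped after their values were seen, all 5 were highest on aKO 4 and 4 had control 3 as the highest control.

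The slow members that rose were Mybpc1, slow myosin-binding protein C, and Myoz2, the slow and cardiac myozenin. They rose 7.64-fold (95% interval 2.61 to 22.3, adjusted p = 0.0264) and 9.29-fold (95% interval 3.33 to 25.9, adjusted p = 0.0178). Mybpc1 lost its call on leaving out control 1 or 2, aKO 3 or aKO 4, with adjusted p between 0.0502 and 0.0690. Myoz2 lost it on leaving out control 1 (adjusted p = 0.0561). Myoz2 was well above background on 1 of 4 controls, and its log2 fold change of 3.22 was 1.03 with the normexp background. Tpm3 encodes slow tropomyosin but also forms made in most cells, and was bright on all 8 arrays. It stood at 6.22, 6.17, 6.32 and 6.10 in controls and 5.97, 5.94, 6.34 and 6.13 in Senp2-aKO arrays (log2 fold change -0.11, 95% interval -0.37 to 0.15), and at 0.04 when its probes were averaged. The median of the slow members was 0.17 without aKO 4 and 0.63 to 1.44 without any other array.

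**Figure D2:**
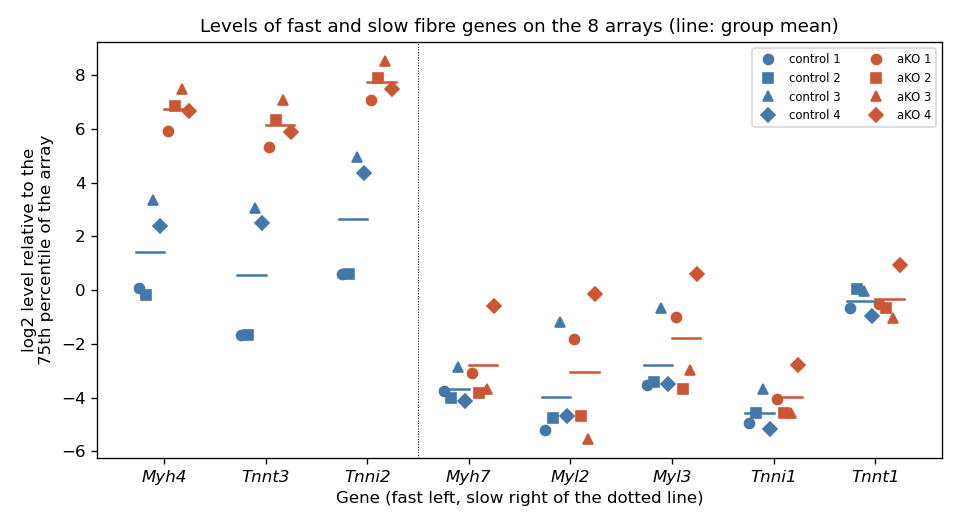
Log2 level of 3 fast and 5 slow fibre genes (x axis) on the 8 arrays, relative to the 75th percentile of each array; each point is an array and each line a group mean. Senp2-aKO arrays lie above all controls for Myh4, Tnnt3 and Tnni2, while for Myh7, Myl2, Myl3, Tnni1 and Tnnt1 the groups overlap and aKO 4 is highest.

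Whether fast forms changed more than their slow counterparts was tested on each array's ratio of the pair, which sets no probe's level against another's. Of 8 pairs 7 could be tested, with an exact permutation test over the 70 assignments of arrays to groups, two-sided, adjusted over the 7. The ratio of Tnnt3 to Tnnt1 rose by 5.52 on the log2 scale, that of Tnni2 to Tnni1 by 4.52, that of Myh4 to Myh7 by 4.43, and that of Mybpc2 to Mybpc1 by 2.52. In these 4 pairs every Senp2-aKO array lay above every control, which gives the smallest p possible (0.0286 each) and an adjusted p = 0.05. So 0 of 7 pairs fell under the threshold of 0.05, and 4 did before adjustment. At this smallest p none could pass unless a further pair also separated fully, so the count says little about any single pair. The ratio of Myoz1 to Myoz2 changed by 2.07 (p = 0.0571, adjusted p = 0.0800 in the exact test). Mylpf over Myl2 changed by 3.56 (exact p = 0.143, adjusted p = 0.167) and Myl1 over Myl3 by 1.35 (exact p = 0.314 for both). In each of these 3 pairs aKO 4 lay below control 4. Mylpf, Myl2, Tnni1 and Myoz2 were not well above background on every array, so their ratios rest partly on background readings. With normexp background correction 5 pairs passed, those 4 and Myoz1 over Myoz2 (exact adjusted p = 0.0400).

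**Figure D3:**
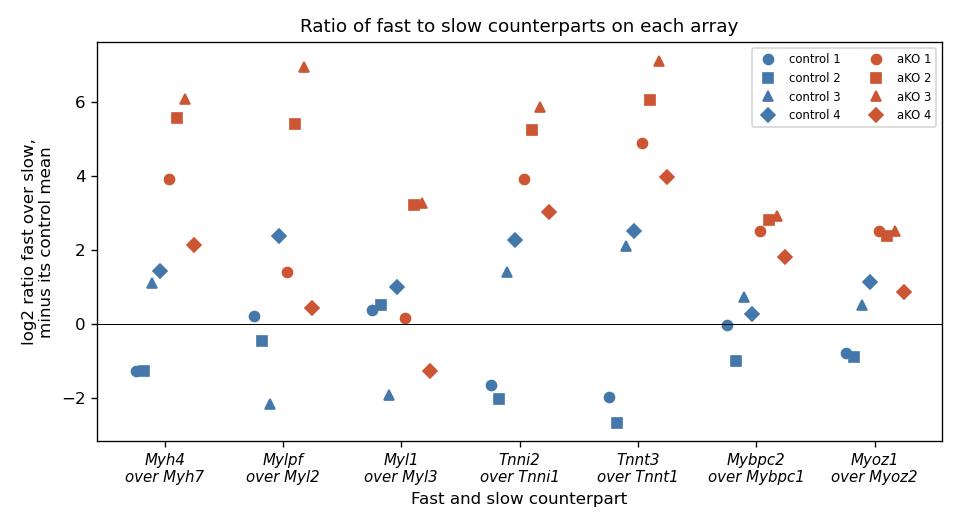
Log2 ratio of a fast gene to its slow counterpart on each array, minus the mean of the 4 controls (y axis), for 7 pairs (x axis); each point is an array. In 4 pairs all Senp2-aKO arrays lie above all controls, and aKO 4 is the lowest Senp2-aKO array in every pair.

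Of the forms known from heart, Myh6 and Tnni3 did not pass and Tnnt2 was not tested. Myh6, the fast heavy chain of heart, was well above background on 2 controls and 2 Senp2-aKO arrays, at -5.21, -5.30, -4.59 and -4.30, then -3.71, -5.48, -5.26 and -4.41 (log2 fold change 0.14, SE 0.41, adjusted p = 0.847). Tnni3, cardiac troponin I, read -3.02, -3.47, -2.63 and -3.5, then -2.95, -2.87, -3.18 and -3.48 (0.03, SE 0.22, adjusted p = 0.933), and -0.05 under quantile normalisation. Both groups overlapped in each gene, and the 95% intervals ran from -0.81 to 1.08 and from -0.48 to 0.55. Tnnt2, cardiac troponin T, was well above background on 1 Senp2-aKO array only and was not tested. Its measured levels were -6.72, -6.91, -6.19 and -6.20 in controls and -4.18, -4.46, -4.03 and -5.26 in Senp2-aKO arrays. Of 5 tested genes of a heart muscle list, which holds the natriuretic peptides Nppa and Nppb, the channel Ryr2 and Myh6 and Tnni3, 0 passed in limma and 0 had an unadjusted p under 0.05. The heart regulators Gata4, Tbx20 and Hcn4 and the atrial light chain Myl7 were well above background on 0 of 8 arrays, and the regulator Nkx2-5 on 1 control and 1 Senp2-aKO array.

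Actc1, the actin of heart and developing muscle, read -3.66, -4.22, -2.59 and -3.66 in controls and -2.58, -2.04, -1.07 and -2.21 in Senp2-aKO arrays. Its groups parted by a small margin, and it rose 2.95-fold (95% interval 1.54 to 5.63, adjusted p = 0.0397). The call ended without control 1, 2 or 4 or any 1 Senp2-aKO array (adjusted p from 0.0501 to 0.101), and with no filter on dim probes (0.0645). With the normexp background its log2 fold change was 0.78, against 1.56. Myl4, the light chain of atrium and embryonic muscle, went the other way. It was bright in controls, at 5.02, 5.23, 4.79 and 4.78, and lower in all Senp2-aKO arrays, at 4.24, 3.05, 4.25 and 4.41. It did not pass (log2 fold change -0.97, SE 0.29, adjusted p = 0.0619), but did under quantile normalisation (-1.02, adjusted p = 0.0337), with the normexp background (-0.99, adjusted p = 0.0376) and without aKO 2 (-0.65, adjusted p = 0.0196).

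Thin filament genes that fibre types share rose. Acta1, skeletal actin, had levels of 1.69, 1.42, 3.69 and 3.74 in controls and 5.79, 6.30, 7.10 and 6.24 in Senp2-aKO arrays, a 13.2-fold rise (95% interval 5.15 to 33.8, adjusted p = 0.00925). Neb, the nebulin that spans the thin filament, read -3.90, -3.23, -2.33 and -3.21, then -1.86, -0.78, 0.01 and -0.62, a 5.10-fold rise (95% interval 2.54 to 10.2), which on the log2 scale was 2.35, or 1.45 with the normexp background. Tpm2, beta tropomyosin, read 1.54, 1.86, 2.0 and 1.92, then 2.64, 3.5, 4.15 and 3.34, a 2.98-fold rise (95% interval 1.88 to 4.72). In all 3 the groups were apart, and aKO 3 was highest. For Tpm2 the controls spanned little, in contrast to Acta1.

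Tpm1, alpha tropomyosin, makes striated, smooth muscle and general forms from 1 gene by splicing, and its 5 probes disagreed. Both probes designed on NM_001164248 rose, with log2 fold changes of 3.94 (SE 0.71) and 3.87 (SE 0.68) and adjusted p = 0.0166 and 0.0156 over all probes kept. On the one that stood for the gene the levels were 1.08, 1.38, 4.03 and 3.58 in controls and 5.59, 6.41, 7.35 and 6.47 in Senp2-aKO arrays. The probe on NM_001164249 read 1.40, 1.56, 1.59 and 1.65 in controls and 1.16, 0.76, 1.21 and 1.33 in Senp2-aKO arrays, lower on every Senp2-aKO array without passing (-0.44, SE 0.14, adjusted p = 0.0828). Probes on NM_001164251 and NM_001164255 gave -0.10 (SE 0.20) and -0.23 (SE 0.26) and did not pass. Averaged over its probes, Tpm1 changed by 1.41 on the log2 scale and kept its call (adjusted p = 0.0268).

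**Figure D4:**
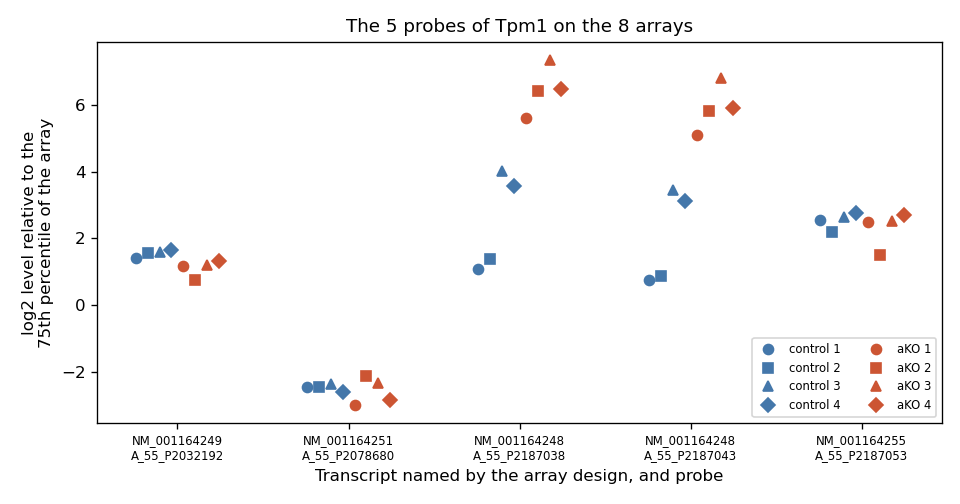
Log2 level of the 5 Tpm1 probes (x axis, named by the transcript of the array design) on the 8 arrays, relative to the 75th percentile of each array. Both NM_001164248 probes are higher on every Senp2-aKO array than on any control, and the other 3 are not.

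Ttn encodes titin, the spring that spans the sarcomere from Z-disc to centre. It stood at -4.52, -5.70, -1.42 and -3.71 in controls and at -0.64, 0.49, 1.26 and 0.60 in Senp2-aKO arrays, a 19.2-fold rise (95% interval 4.97 to 73.9, adjusted p = 0.0175). The call ended without control 1 (adjusted p = 0.0566). With the normexp background the log2 fold changes of Ttn and Actn2 were 2.65 and 2.32, against 4.26 and 4.68. A second Ttn probe gave 4.21 (SE 0.73), and 2 others were well above background on 0 controls and 3 Senp2-aKO arrays each. The M-band proteins Myom2 and Myom1, which tie thick filaments at the centre, rose 32.8-fold and 4.31-fold, and the actinin gene Actn2 25.6-fold. The Myom1 call ended without control 1, 2 or 4 (adjusted p from 0.0527 to 0.0655) while Actn2 lost its call on leaving out either of controls 1 and 2 or of aKO 3 and aKO 4 (0.0515 to 0.0727). Mybph, a relative of myosin-binding protein C, did not pass (log2 fold change 0.65, SE 0.70, adjusted p = 0.559), and control 4 (-1.84) exceeded all Senp2-aKO arrays (-3.96 to -2.40).

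Z-disc genes rose with the filaments. Tcap, telethonin, which caps titin at the Z-disc, had levels of -2.27, -1.92, 2.30 and 1.53 in controls and 4.70, 5.79, 6.52 and 5.28 in Senp2-aKO arrays. Its rise of 50.7-fold (95% interval 9.38 to 274, adjusted p = 0.0146) was the largest among the members. Myot (myotilin) rose 34.6-fold, Smpx, a small costamere protein, 30.1-fold, Ankrd2, a stretch-responsive ankyrin protein, 8.82-fold. Ldb3, a PDZ protein of the Z-disc, and Cmya5, a desmin partner, rose 3.69-fold and 4.09-fold. Myot lost its call on leaving out control 1, control 2 or aKO 4, with adjusted p between 0.0528 and 0.0568, averaging its probes gave Cmya5 a log2 fold change of 1.29 against 2.03, and a second Cmya5 probe gave 0.55 (SE 0.15, adjusted p = 0.0535 over all probes kept). Nrap and Xirp2, proteins of myofibril assembly and repair, were well above background on 0 of 4 controls and 4 of 4 Senp2-aKO arrays, and were at least 3.87-fold and 6.25-fold higher. They were tested because they were high in Senp2-aKO arrays, so their p is not given. These bounds set the Senp2-aKO mean against the lowest signal well above background on each control array, or the probe's own signal where higher. With the normexp background, whose offset of 50 shrinks the changes of dim probes, the log2 fold changes were 0.76 and 1.32. It also gave 3.14 for Myot, 3.05 for Smpx and 2.07 for Ankrd2, against 5.11, 4.91 and 3.14. Xirp1, a relative of Xirp2, did not pass (0.69, SE 0.38, adjusted p = 0.248).

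Csrp3 and Mb had the widest controls. Csrp3, muscle LIM protein, read -7.04, -7.22, -2.42 and 0.21 in controls and -0.59, 1.14, 1.52 and 0.58 in Senp2-aKO arrays, and did not pass (log2 fold change 4.78, SE 1.61, adjusted p = 0.0836). Control 4 lay above aKO 1, and without control 4 the gene passed (6.22, adjusted p = 0.0281), as it did with the normexp background (2.60, adjusted p = 0.0414). Mb, myoglobin, which stores oxygen in red fibres and heart, read -4.05, -4.34, 1.34 and 0.36, then 2.21, 3.40, 4.52 and 3.33, a 32.8-fold rise (95% interval 3.97 to 271, adjusted p = 0.0407). Its call ended without control 1, control 2 or any 1 Senp2-aKO array (adjusted p from 0.0609 to 0.102), and with no filter on dim probes (0.0661).

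Array by array, many members shared an order. Controls 3 and 4 both lay above controls 1 and 2 in 33 of 45 members, against 13.9% of all genes tested. Control 3 was the highest control in 33 members and aKO 3 the highest Senp2-aKO array in 33, while aKO 1 was the lowest Senp2-aKO array in 35. As a median over the 12 fast genes, the difference from the control mean was -1.56, -1.69, 2.15 and 1.30 in controls 1 to 4 and 4.28, 5.07, 5.74 and 4.72 in aKO 1 to 4. Over the 8 slow genes it was -0.56, -0.47, 1.11 and -0.51, then 1.18, -0.20, 0.01 and 3.22. The range over the 4 controls was 2.90 on the log2 scale in the median member, against 0.32 in the median gene of the array, and that over the Senp2-aKO arrays 1.81 against 0.54. Controls spread more than Senp2-aKO arrays in 28 of 45 members and in 24.3% of all genes.

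**Figure D5:**
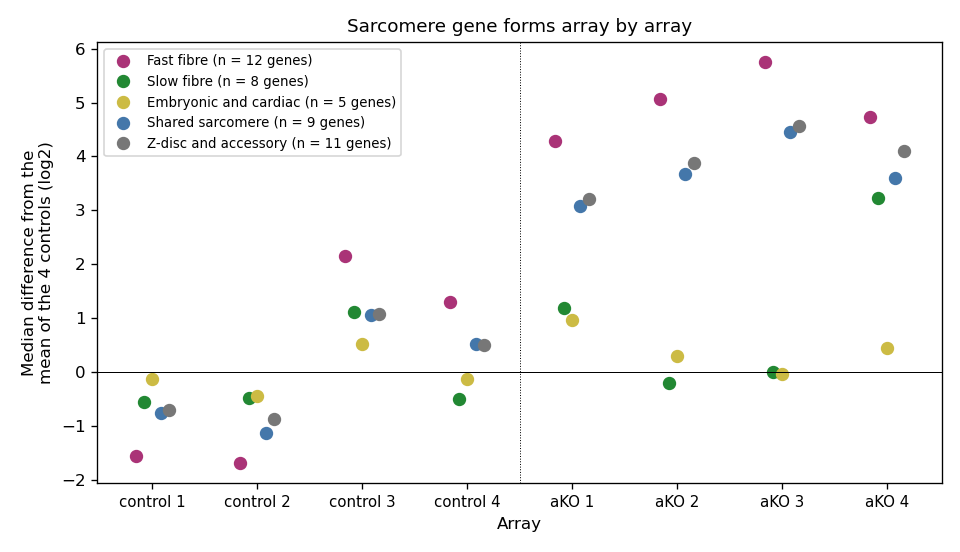
Median difference from the mean of the 4 controls (y axis, log2) over the tested genes of each form, on each array (x axis). Fast, shared and Z-disc medians are above every control on all 4 Senp2-aKO arrays, while the slow median exceeds control 3 only on aKO 1 and aKO 4.

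Other genes of the sarcomere and of its assembly, outside the 48, were partly higher. Of 29 listed, 19 were tested, 9 rose, 1 fell and 9 did not pass, with a median log2 fold change of 0.85. Klhl41 and Klhl40, which stabilise nebulin and its partners, rose 20.4-fold and 10.4-fold, and the thin filament cap and nucleator genes Tmod4 and Lmod3 14.3-fold and 7.44-fold. Klhl41 was well above background on 1 of 4 controls and Klhl40 on 2, so their folds are set partly against background. Myom3, the third M-band protein, fell 2.17-fold (log2 fold change -1.12, SE 0.31, adjusted p = 0.0469), from 2.33, 2.69, 1.95 and 2.21 in controls to 1.1, 0.41, 1.93 and 1.28. Its relatives Myom1 and Myom2 rose.

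Muscle fibre genes outside the sarcomere rose as well. Of 12 such genes, among them the creatine kinases Ckm and Ckmt2, the calcium pump regulator Sln and the glycolytic enzyme Pgam2, 11 rose and 1 did not pass, with a median log2 fold change of 4.17. Their summed signal, in multiples of the 75th percentile, was 5.61 to 29.1 in controls and 122 to 360.2 in Senp2-aKO arrays. Most of that sum came from other genes of the 12, not from those named. Ckm read -3.92, -3.83, 0.65 and 0.47, then 3.13, 4.19, 4.98 and 3.81, with its high and low arrays as in most fast members. Sln did not share that order, at -6.98, -7.15, -6.42 and -1.14, then -0.47, 1.23, 0.72 and -1.0, low on control 3 and lowest of the Senp2-aKO arrays on aKO 4. It was well above background on 1 control only. Of 8 genes listed for satellite cells and myoblasts, 3 were tested. Myf6 and Myh8 rose (12.5-fold and 34.9-fold), and Ncam1 did not pass (limma adjusted p = 0.0520). The summed signal of the 3 (1.51 to 14.6 in controls, 78.4 to 230.4 in Senp2-aKO arrays) is mostly that of Myh8, itself one of the 48. Myf6 alone had log2 levels of -4.85 to -3.70 in controls and -1.57 to 0.16 in Senp2-aKO arrays. It was well above background on 2 of the controls, so its fold is set partly against background. Pax7, Myf5, Myod1 and Myog, the factors that define these cells, were well above background on 0 of 8 arrays. Of 6 smooth muscle genes 0 passed in limma (3 at an unadjusted p under 0.05, all lower), with a summed signal of 78.6 to 96.1 in controls and 51.6 to 76.4 in Senp2-aKO arrays. In whole tissue, more muscle fibres in a sample and more muscle RNA per cell cannot be told apart, and the part of muscle fibres in these results was not tested.

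Brown and beige adipocyte genes rose too. All 7 of 7 listed rose, with a summed signal of 38.1 to 102 in controls and 282 to 650.4 in Senp2-aKO arrays. Ucp1, the heat-producing protein of brown fat, stood at -1.11, 0.46, -1.52 and -1.78 in controls and 5.04, 5.36, 4.43 and 6.65 in Senp2-aKO arrays. It was lowest on aKO 3 among the Senp2-aKO arrays, where fast members were highest, and highest among controls on control 2, where fast members were low. Elovl3, a fatty acid elongase of brown fat, was highest among controls on control 3 (-3.01, others -4.32 to -4.04). Among Senp2-aKO arrays it was lowest on aKO 1 (0.65). Most fast members had these ranks, but of the 7 genes listed here only Elovl3 had either. Its highest level was on aKO 4 (3.82). The mean log2 level of the 7 genes was lowest among controls on control 3 (0.22) and among Senp2-aKO arrays on aKO 3 (3.43). Cox7a1 and Cox8b of this list are also known from muscle, and the summed signal is mostly theirs. The share of these cells in the sarcomere result was not tested. Without aKO 2, the array with the highest lymphocyte genes, 29 members rose.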

How the data were processed

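Expression was measured on 8 Agilent 1-colour arrays, 1 per sample, 4 control and 4 Senp2-aKO, from 0.5 µg of TRIzol-extracted RNA labelled with Cy3. The submitters' processing notes name Agilent Feature Extraction 11.5.1 as the software that read the slide. The processed signal is background-subtracted and detrended, per the file headers. What the authors deposited for each spot is a processed and a raw intensity, unscaled between arrays, and flags of another kind (0 or 1). A series-wide normalised table was left out, because its 8 columns match no label.

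Each processed signal was divided by the 75th percentile on that array and put on the log2 scale. Spots flagged as outliers were left out and the others averaged per probe, which dropped 269 probes. Probes well above background on at least 4 of 8 arrays were kept. Through RefSeq accessions (GRCm38.p6), 27656 of 55681 probes had a gene symbol, and a gene was represented by its probe of highest mean. The array design names build mm9, so gene coordinates are given only for promoters, from RefSeq.

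Groups were compared with limma 3.58.1 (R 4.3.3), tested on simulated data first, with Benjamini-Hochberg adjustment over 14730 genes and SE as limma's standard error. Precision is limited by the number of arrays. The members, the lists, the pairs and the rule for naming genes (all members, with values on every array for 30 fixed by role, and up to 4 genes of each other list) were chosen with earlier results of these data known. Outside that rule, Csrp3 is given on every array, while Myh3 and Tnnc1, below the filter, are not. Alternatives were quantile normalisation, normexp background (offset 50), no filter on dim probes, the mean of a gene's probes, the replicate number as a block, and leaving out each array. Forms were fast, slow, embryonic and cardiac, shared, and Z-disc with accessory genes.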

Additional observations from a re-analysis of the deposited data

Results flagged for a closer look

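Among 45 members in 2 groups of 4 arrays, 4 values stood far from the other 3 of their group, by Dixon's gap test, which flags about 1 group in 20 by chance. Chance alone would give about as many flags. Myl2 and Myl3, the slow light chains, were high on control 3, at log2 levels of -1.19 (others -5.22 to -4.69) and -0.67 (others -3.53 to -3.42). Mybph was high on control 4, at -1.84 (others -4.89 to -4.69). Myl4 was low on aKO 2, at 3.05 (others 4.24 to 4.41), the array with the highest lymphocyte genes.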

How the results depend on the processing

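The count of risen members was 30 to 32 under the 5 alternatives with all arrays, and 20 to 33 on leaving out 1 array. The count of fallen members was 1 under quantile normalisation and with the normexp background, and 0 to 1 on leaving out 1 array. With normexp, 11 of the risen members had log2 fold changes more than 1.5 times smaller (0.76 to 3.14), and the medians were 2.32 (shared) and 2.07 (Z-disc); averaging probes gave 2.35 (shared). Pairs that passed numbered 5 with normexp, and 0 on leaving out any array, counts that the smallest p possible limits here too. Over all genes, 689 fell with no filter and 569 with the replicate block, against 1049. On leaving out 1 array 434 to 1356 rose and 280 to 1472 fell, against 1074 and 1049. The values that changed sign belong to members that did not pass. Under alternatives with all arrays these were Tnni3 (-0.049, quantile) and Tpm3 (0.041, mean of probes). On leaving out 1 array they were Tnni3 (-0.081 to 0.21), Tnnt1 (-0.34 to 0.32), Myh6 (-0.20 to 0.39) and Myl2 (-0.051 to 1.84). The labels number the samples alike in both groups. Deviations of same-numbered samples correlated at -0.02, -0.08, 0.14 and 0.11. Such values cannot show whether the numbers pair the mice, and the labels do not say. With the replicate block 32 members rose, Myh1 being added, and no member lost its call. The causes were not tested.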
